A study of Mus musculus with 19 samples.

Results

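The 8 genes described here are Saa1, Saa2 and Saa3, which encode serum amyloid A proteins, Hp, which encodes haptoglobin, Lcn2, Slpi, S100a8 and S100a9. They were taken by symbol from the 53101 gene names of the deposited tables, and each symbol had 1 row in each table. The samples were 19 libraries of bulk RNA from mouse lung organoids, which are 3-dimensional cultures grown from tissue cells. One table held NSCLC (non-small cell lung cancer) organoids (4 libraries) and normal lung organoids (3 libraries). The other held NSCLC organoids labelled resistant to immunotherapy (9 libraries) and NSCLC organoids labelled sensitive to it (3 libraries). Strain, genotype, age, tumour driver, the agent behind the resistance label, and whether the libraries of a group came from separate animals or cultures were not stated in the labels. The p-values below therefore measure the spread between these libraries, which may be technical. Counts of resistant replicates 2 and 3, and of 8 and 9, differed least among resistant pairs. Their chi-square per degree of freedom was 18.4 and 25.6, against 60.2 to 205 in the other pairs. Whether such pairs are repeats of 1 culture was not tested, so the 9 resistant libraries may not all be independent. The genes were chosen by name with measured values of these libraries known. The fall of Saa3 in NSCLC was among those values, and none is recorded for the choice of the other 7. The changes of the 8 genes are therefore descriptions and no independent evidence of a direction.

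Acute phase proteins are made in response to infection and injury, mainly by the liver, under the control of interleukin 6 and interleukin 1 acting through STAT3, C/EBP and NF-kB factors. Epithelial surfaces such as the lung make several of them locally, together with proteins that starve, bind or inhibit microbes. Serum amyloid A proteins bind lipids and retinol; in the mouse, Saa3 is the family member made mainly outside the liver. Haptoglobin binds free haemoglobin. Lipocalin 2, the product of Lcn2, captures bacterial iron carriers, and Slpi inhibits the neutrophil proteases elastase and cathepsin G. S100a8 and S100a9 form calprotectin, a calcium and metal binding dimer abundant in neutrophils and also made by stressed epithelia.

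On the mouse build mm10, these serum amyloid A genes lie close together on chromosome 7. Saa3 spans chr7:46711998-46715700 on the minus strand, Saa1 spans chr7:46740497-46742980 on the minus strand, and Saa2 spans chr7:46751790-46754313 on the plus strand, each with 4 exons. S100a8 (chr3:90668978-90670035, plus strand, 3 exons) and S100a9 (chr3:90692632-90695721, minus strand, 3 exons) are close to each other too. Lcn2 (chr2:32384633-32388252, minus strand, 6 exons), Slpi (chr2:164354070-164389095, minus strand, 4 exons) and Hp (chr8:109575128-109579172, minus strand, 5 exons) lie far from each other and from the other genes described here. The Saa1 and Saa2 transcripts were 87.3% identical over their aligned bases, against 62.2% for Saa1 and Saa3. Of all 50-base windows in the Saa1 transcript 14.8% occurred exactly in Saa2 or Saa3, so reads of Saa1 and Saa2 may be split between them, while no 150-base window of any of the 8 transcripts was shared with another gene. Slpi overlaps the microRNA gene Mir7678 on the same strand.

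The upstream sequences of the 3 serum amyloid A genes are shown because these nearby genes had very different levels in the organoids. Each is 200 bases from RefSeq on GRCm38.p6, ending 51 bases before the start that RefSeq annotates, which differs from the GENCODE gene bounds above for Saa3 and Saa2, and written 5′ to 3′ on the gene's strand (Saa3 at chr7:46715727-46715926, Saa1 at chr7:46743031-46743230, Saa2 at chr7:46751583-46751782). Capitals mark matches on either strand to TTNNGNAA, a simplified C/EBP motif.
Saa3: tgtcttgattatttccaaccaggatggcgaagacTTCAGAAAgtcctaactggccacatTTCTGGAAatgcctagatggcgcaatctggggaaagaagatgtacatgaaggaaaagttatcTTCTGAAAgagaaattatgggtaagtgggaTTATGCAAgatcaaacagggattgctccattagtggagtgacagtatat
Saa1: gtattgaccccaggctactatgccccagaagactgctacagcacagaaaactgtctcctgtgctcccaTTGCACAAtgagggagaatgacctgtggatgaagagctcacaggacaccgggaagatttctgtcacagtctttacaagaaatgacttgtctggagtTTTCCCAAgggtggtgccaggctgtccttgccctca
Saa2: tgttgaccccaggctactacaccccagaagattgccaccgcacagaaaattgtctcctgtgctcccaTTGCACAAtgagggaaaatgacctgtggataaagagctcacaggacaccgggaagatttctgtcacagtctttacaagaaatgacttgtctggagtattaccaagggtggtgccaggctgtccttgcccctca
The Saa1 and Saa2 windows were 93.5% identical, and Saa3 was 49.3% identical to Saa1. The Saa3 window held 4 matches, the Saa1 window 2 and the Saa2 window 1. The motif is common, since 32.3% of 32841 mouse promoter windows of the same length held it. A STAT motif (TTCNNNGAA, in 5.76% of the windows), an NF-kB motif (3.13%) and TATAAA (9.14%) had no match on either strand in these 3 windows. The 50 bases next to the start were not searched in any gene, so the counts do not show whether TATAAA occurs there. No match overlapped another, and a match is a match of letters only.

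Total counts were 122967042 to 154479953 in NSCLC libraries and 20138197 to 21060762 in normal libraries, so depth went with the group in that table. They were 11988677 to 24462955 in resistant libraries and 15292427 to 18716749 in sensitive libraries. Levels are given as CPM (read counts relative to the TMM-scaled library total), and levels of different genes are compared only as CPM per kilobase of transcript. The normal organoids had the lung markers of their label, and the surfactant gene Sftpc averaged 38546 ± 3662 CPM (SD, n = 3). In the resistant libraries the epithelial marker Epcam ranged from 0.818 to 323 CPM, and it was highest in replicates 9 and 8. The summed 12 epithelial markers were 2470 CPM in resistant replicate 8 and 3210 CPM in resistant replicate 9, and 302 to 1046 CPM in the other 7, so replicates 8 and 9 stand apart, and values of the 8 genes that moved by over 1.5 times without them are given both ways.

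The first comparison set NSCLC organoids against normal lung organoids. Of the 8 genes, 7 had enough counts to be tested and 6 of those were lower in NSCLC at an adjusted p under 0.05, with fitted falls of 8.13-fold for Lcn2 to 252-fold for Saa3. None was higher, and S100a9 did not pass. Over all 19932 genes tested, 25.0% were lower and 28.5% higher (edgeR's quasi-likelihood test with Benjamini-Hochberg adjustment). The same 6 genes had all 4 NSCLC libraries below all 3 normal libraries, which 27.7% of all genes tested also had. The median log2 fold change was -3.62 over the 7 genes and 0.11 over all genes. Since RNA was measured in bulk, fewer cells of a type and less RNA per cell cannot be told apart.

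**Figure D1:**
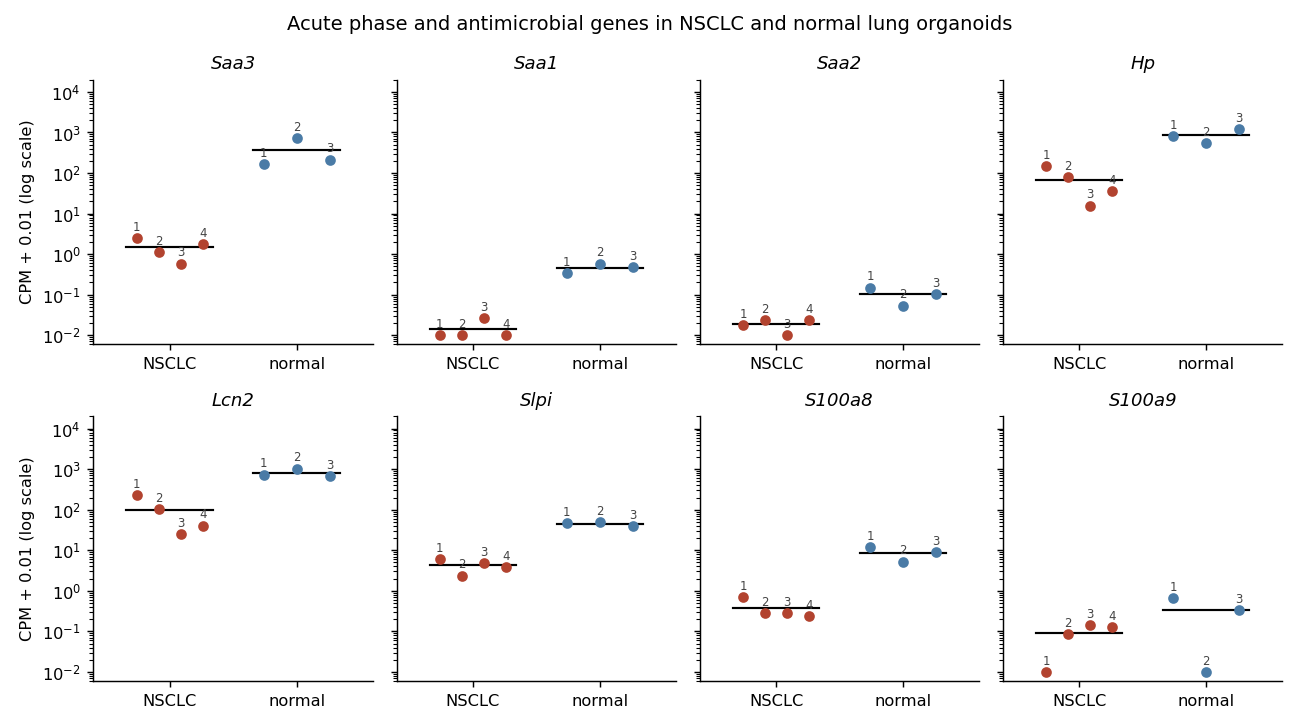
CPM + 0.01 on a log axis in each NSCLC (red, n = 4) and normal (blue, n = 3) library, with replicate numbers above the points and a black line at the group mean + 0.01. The NSCLC points of Saa3 lie between 0.571 and 2.45 CPM and the normal points between 164 and 725 CPM, while S100a9 overlaps near 0.

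Saa3 had the widest gap. It stood at 2.45, 1.09, 0.571 and 1.72 CPM in NSCLC replicates 1 to 4, against 164, 725 and 214 CPM in normal replicates 1 to 3. The normal libraries differed by 4.43 times among themselves, with replicate 2 the highest, and no NSCLC library came near them. The log2 fold change was -7.97 ± 0.76 (SE), and -7.04 without normal replicate 2. Its fall was among the results known when the genes were picked, so it is given without a p-value.

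Saa1 and Saa2, the liver-type serum amyloid A genes of the mouse, had few counts in both groups. Saa1 had 0, 0, 2 and 0 counts in the NSCLC libraries, against 7, 13 and 10 counts in the normal libraries. The ratio of the pooled rates was 0.00816 (95% exact interval 0.000945 to 0.0322, counting error only), and the log2 fold change was -6.44 ± 0.89 (adjusted p = 0.000589, edgeR). It was -8.21 without NSCLC replicate 3, the library with both counts, and -5.24 when Saa1 and Saa2 were summed. Saa2 had 5 counts over the NSCLC libraries and 6 over the much shallower normal libraries, too few to be tested here; the ratio of its rates was 0.102 (0.0246 to 0.401). In the authors' deposited table Saa2 has a log2 fold change of -3.38 and an adjusted p of 0.0235.

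Hp, the haemoglobin scavenger, was at 145, 79.4, 15.7 and 36.0 CPM in the NSCLC libraries, against 801, 551 and 1191 CPM in the normal libraries. The highest NSCLC library, replicate 1, was still below the lowest normal one. Its log2 fold change was -3.62 ± 0.70 (adjusted p = 0.00293, edgeR), and -4.32 without NSCLC replicate 1. Markers of hepatocytes, the main source of Hp in the body, ran the other way, with 5 of 6 tested higher in NSCLC and none lower. The 12 markers summed to 90.7 to 1990 CPM in NSCLC libraries and 0.693 to 1.31 CPM in normal libraries, where 7 of the 12 (Ttr, Apoc3, Serpina1a, Serpina1c, Fgb, Tat and Cps1) had no count. Most of the NSCLC sum was Apoa1, Hnf4a and Alb, which averaged 677, 279 and 115 CPM there. Apoc3, Fgb and Cps1 were near 0 in NSCLC too, at means of 0.0998, 0.0680 and 0.00950 CPM. Which cells made the Hp RNA in either group was not tested.

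Lcn2, the gene of the iron carrier trap, was at 233, 102, 25.3 and 40.5 CPM in the NSCLC libraries, against 735, 1038 and 670 CPM in the normal libraries. The NSCLC libraries were spread over 9.21 times and the normal libraries over 1.55 times, without overlap. The log2 fold change was -3.02 ± 0.70 (adjusted p = 0.00718, edgeR), and -3.91 without NSCLC replicate 1. Slpi, the protease inhibitor gene, was at 5.99, 2.36, 4.84 and 3.76 CPM in the NSCLC libraries, against 45.8, 48.9 and 39.1 CPM in the normal libraries. The groups were far apart, and the log2 fold change of -3.40 ± 0.30 had the smallest SE of the 7 genes tested (adjusted p = 5.97e-05, edgeR).

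The calprotectin subunits were low throughout. S100a8 was at 0.691, 0.269, 0.273 and 0.223 CPM in the NSCLC libraries, against 12.1, 5.27 and 9.01 CPM in the normal libraries, and its log2 fold change was -4.59 ± 0.51 (adjusted p = 0.000188, edgeR). S100a9 had 0, 11, 16 and 17 counts in the NSCLC libraries, against 14, 0 and 7 counts in the normal libraries. Its groups overlapped, and its log2 fold change of -1.97 ± 1.18 did not pass (adjusted p = 0.191, edgeR). S100a9 per kilobase was 0 to 0.497 of S100a8 within the NSCLC libraries (median 0.356) and 0 to 0.0506 within the normal libraries (median 0.0336).

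Per kilobase of transcript, Lcn2 was the highest of the 8 genes in both groups. It averaged 109 ± 103 CPM per kilobase in NSCLC (rank 723 of 32221 genes with a length) and 890 ± 214 in normal organoids (rank 55). Saa3 averaged 2.63 ± 1.46 CPM per kilobase in NSCLC (rank 10314) and 662 ± 559 in normal organoids (rank 97). Hp averaged 51.3 ± 42.6 CPM per kilobase in NSCLC (rank 1663) and 630 ± 240 in normal organoids (rank 103). In NSCLC the order was Lcn2, Hp, Slpi, Saa3, S100a8, S100a9, Saa2 and Saa1, and the ranges of neighbours did not overlap only between Hp and Slpi and between S100a8 and S100a9. In normal organoids Lcn2, Saa3 and Hp overlapped at the top, Slpi and S100a8 followed with no overlap, and Saa1, S100a9 and Saa2 overlapped at the bottom. Relative to Lcn2 in the same library, Saa3 per kilobase was 0.0173 to 0.0701 in NSCLC and 0.367 to 1.15 in normal organoids.

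Markers of several cell types changed too, some lower and some higher in NSCLC. Of 12 fibroblast markers all 12 were lower in NSCLC, where they summed to 1.15 to 2.73 CPM and Lum, Tcf21, Dpt and Postn had no count, against 80.1 to 448 CPM in normal libraries. Normal replicate 2, the highest in Saa3 and Lcn2, was also the highest in fibroblast markers (448 CPM) and in macrophage and leukocyte markers (367 CPM, against 57.0 and 128 CPM in normal replicates 1 and 3). That replicate was the lowest normal library in Hp and S100a8, and S100a9 had no count in it. Of 17 tested macrophage and leukocyte markers 12 were lower and 2 higher in NSCLC, where their sum was 89.2 to 185 CPM. Ptprc, the pan-leukocyte phosphatase CD45, was at 0.139 ± 0.058 CPM in NSCLC (n = 4) and 2.94 ± 1.92 CPM in normal organoids (n = 3), with a log2 fold change of -4.39 ± 0.62 (adjusted p = 0.000647, edgeR). Of 11 tested neutrophil markers 3 were higher and 5 lower. They summed to 39.8 to 817 CPM in NSCLC and 223 to 259 CPM in normal libraries, with Mpo and Ctsg at 0 in all normal libraries and Stfa2 at 0 in all NSCLC libraries. On average most of both sums was Ltf (150 CPM in NSCLC and 74.7 CPM in normal libraries) and Cd177 (123 and 149 CPM), and neither gene passed. The low markers Csf3r and Ly6g went opposite ways. Csf3r had 3 counts in NSCLC and 69 in normal libraries, and Ly6g had 518 and 2. The highest sum was in NSCLC replicate 1, of which Ltf gave 576 CPM. That library was also the highest NSCLC library in Saa3, Hp, Lcn2, Slpi and S100a8, while S100a9 had no count in it. Of 12 alveolar type 2 markers 11 were lower, with a sum of 9166 to 15696 CPM in NSCLC and 63765 to 72398 CPM in normal organoids. Of 12 airway secretory markers 3 were higher and 5 lower, with a sum of 1214 to 2052 CPM in NSCLC and 1410 to 2396 CPM in normal libraries. Of 12 epithelial markers 10 were higher, with a sum of 12847 to 22207 CPM in NSCLC and 2875 to 3361 CPM in normal libraries. The part of these cell types in the values of the 8 genes was not tested.

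Among the cytokines and receptors that drive the acute phase, 9 of 22 tested genes were lower and 5 higher in NSCLC, with a median log2 fold change of -0.63. Il6, the main inducer, was at 0.0289 ± 0.0107 CPM in NSCLC and 6.04 ± 1.73 CPM in normal organoids (SD, n = 4 and 3), a log2 fold change of -7.62 ± 0.43 (adjusted p = 6.47e-06, edgeR). Il11, a cytokine that signals through the same gp130 subunit, had a log2 fold change of -6.81 ± 0.54 (adjusted p = 3.35e-05, edgeR). The receptor genes Il6ra and Osmr fell too, with log2 fold changes of -1.55 ± 0.25 and -1.02 ± 0.25. Il1b fell by 4.21 ± 1.01 on the log2 scale, with -2.50 without normal replicate 2 and -5.29 without NSCLC replicate 4. In the other direction, Tnf rose with a log2 fold change of 4.06 ± 0.56 and Il22ra1, the interleukin 22 receptor of epithelia, with 4.66 ± 0.62. Il1rn, the interleukin 1 receptor antagonist, rose with 4.55 ± 0.54 (adjusted p = 0.000261, edgeR).

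Of the 25 transcription factors and feedback genes tested, 11 were higher and 3 lower. The STAT3 gene Stat3 was at 220 ± 31.2 CPM in NSCLC and 255 ± 6.78 CPM in normal organoids and did not pass (adjusted p = 0.252, edgeR), but did under the stricter filter (log2 fold change -0.40, adjusted p = 0.0390). Its feedback inhibitor Socs3 did not pass (adjusted p = 0.514) with a log2 fold change of -0.39 ± 0.47, but did without NSCLC replicate 3 (-1.08, adjusted p = 0.00196). Nfkb1, an NF-kB subunit, fell by 0.69 ± 0.14 on the log2 scale, and Bcl3, an atypical IkB protein, rose by 1.80 ± 0.18. The liver-enriched factor Hnf4a was at 279 ± 145 CPM in NSCLC and 0.183 ± 0.141 CPM in normal organoids, a log2 fold change of 10.57 ± 0.89 (11.27 without normal replicate 1).

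Of 18 other acute phase genes tested, 8 were lower and 2 higher, with a median of -1.98. Serpina3n, a protease inhibitor of a large gene family, had no count in NSCLC and averaged 9.73 ± 4.98 CPM in normal organoids, at least 392-fold lower against 3 counts in the NSCLC library with the smallest TMM-scaled total. Orm3, a gene for an orosomucoid, fell by 4.05 ± 0.47 on the log2 scale. The 2 genes higher were the zinc transporter gene Slc39a14 (2.18 ± 0.29) and Hpx, the gene of hemopexin (2.26 ± 0.54). Of 26 other antimicrobial and mucosal defence genes, 11 were lower and 4 higher, with a median of -0.93. Rnase4, a secreted ribonuclease whose first exons are shared with Ang, averaged 29.3 ± 12.0 CPM in NSCLC and 487 ± 53.3 CPM in normal organoids, and Camp, the cathelicidin gene, fell by 5.84 ± 0.47 on the log2 scale. Pglyrp1, which binds bacterial peptidoglycan, rose to 477 ± 215 CPM in NSCLC, against 15.4 ± 1.21 CPM in normal organoids. Wfdc2, a protease inhibitor gene of the same domain family as Slpi, was at 1090 ± 258 CPM in NSCLC and 882 ± 123 CPM in normal organoids and did not pass (adjusted p = 0.289, edgeR).

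Most other S100 genes were higher in NSCLC, 8 of 12 tested, with 2 lower and a median of 2.27. S100a6 averaged 3540 ± 2736 CPM in NSCLC and 153 ± 28.6 CPM in normal organoids, a log2 fold change of 4.53 ± 0.74 (adjusted p = 0.00131, edgeR). S100a10 rose by 3.82 ± 0.43 on the log2 scale and S100a11 by 2.32 ± 0.43. Anxa2, the annexin that binds S100a10, rose by 3.27 ± 0.33. Of 17 partners and receptors of the 8 genes, 8 were lower and 5 higher. Mmp9, the protease whose protein forms a complex with lipocalin 2, averaged 0.0634 ± 0.0973 CPM in NSCLC and 26.7 ± 13.6 CPM in normal organoids, with a log2 fold change of -8.65 ± 0.99 (-10.67 without NSCLC replicate 4). The lipocalin 2 receptor gene Slc22a17 fell by 1.83 ± 0.36 on the log2 scale.

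The second comparison set NSCLC organoids labelled resistant against those labelled sensitive to immunotherapy. Of the 8 genes, 6 were tested and 3 were lower in resistant organoids, Saa3 by 25.5-fold, Hp by 25.7-fold and Lcn2 by 10.04-fold. S100a8, S100a9 and Slpi did not pass, and none of the 8 was higher. Over all 14360 genes tested, 18.2% were lower and 19.3% higher (edgeR's quasi-likelihood test with Benjamini-Hochberg adjustment). The 9 resistant libraries all lay below the 3 sensitive libraries for the same 3 genes, which 16.5% of all genes tested also did. The median log2 fold change was -2.27 over the 6 genes and 0.06 over all genes.

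**Figure D2:**
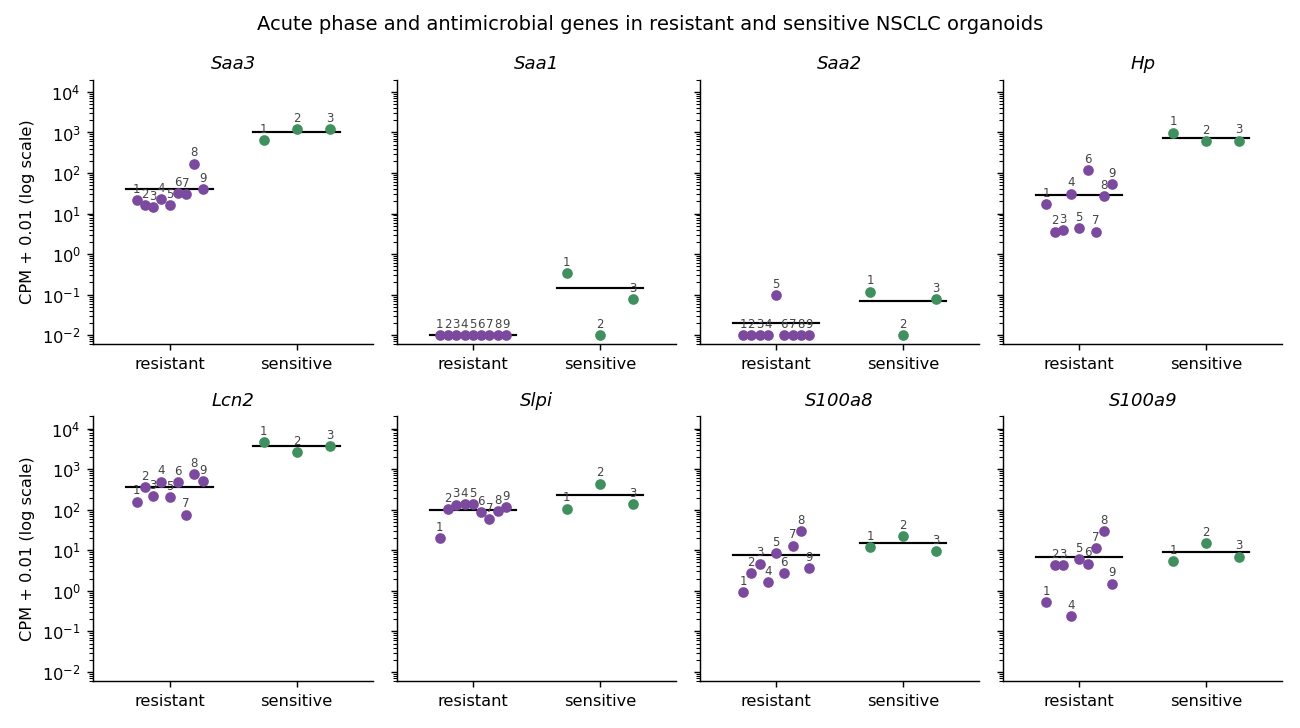
CPM + 0.01 on a log axis in each resistant (purple, n = 9) and sensitive (green, n = 3) library, with replicate numbers above the points and a black line at the group mean + 0.01. Saa3, Hp and Lcn2 do not overlap between the groups, while Slpi, S100a8 and S100a9 do. Resistant replicate 8 is the highest resistant library for Saa3 (171 CPM), Lcn2, S100a8 and S100a9.

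Saa3 was at 21.1, 15.9, 14.3, 23.0, 15.8, 32.0, 30.9, 171 and 39.97 CPM in resistant replicates 1 to 9, against 658, 1235 and 1199 CPM in sensitive replicates 1 to 3. Resistant replicate 8 lay well above the other resistant libraries and was still under the lowest sensitive library. The log2 fold change was -4.67 ± 0.63 (adjusted p = 0.000159, edgeR), -5.42 without resistant replicate 8, -5.56 without resistant replicates 8 and 9, and -5.65 without replicates 6, 8 and 9. Saa1 had no count in any of the 9 resistant libraries, which allows up to 0.244 CPM in the shallowest of them (3 counts), and 7 counts over the sensitive libraries. Saa2 had 2 counts in resistant and 3 in sensitive libraries. No difference of Saa1 or Saa2 was tested at this depth.

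Hp was at 17.1, 3.59, 3.91, 31.2, 4.30, 116, 3.57, 26.6 and 52.4 CPM in resistant replicates 1 to 9, against 988, 604 and 630 CPM in sensitive replicates 1 to 3. The resistant libraries ranged over 32.6 times, with replicates 2, 3, 5 and 7 close together at the bottom and replicate 6 at the top. The log2 fold change was -4.68 ± 0.88 (adjusted p = 0.00142, edgeR), -5.37 without resistant replicate 6 and -6.09 without replicates 6, 8 and 9. Hepatocyte markers summed to 1.08 to 33.8 CPM in resistant and 96.7 to 138 CPM in sensitive libraries, and 4 of 9 tested were lower.

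Lcn2 was at 159, 356, 213, 492.6, 209, 476, 75.4, 773 and 510 CPM in resistant replicates 1 to 9, against 4593, 2678 and 3656 CPM in sensitive replicates 1 to 3. All resistant libraries lay below the lowest sensitive one. The log2 fold change was -3.33 ± 0.47 (adjusted p = 0.000230, edgeR). Per kilobase, Lcn2 averaged 396 ± 241 in resistant organoids (rank 150 of 18770 genes with a length) and 3981 ± 1047 in sensitive organoids, where it was the 3rd highest gene of all. Saa3 averaged 73.0 ± 89.8 CPM per kilobase in resistant organoids (rank 980) and 1857 ± 583 in sensitive organoids (rank 18).

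Slpi ranged from 20.2 to 140 CPM with a median of 105 CPM in the 9 resistant libraries, against 107, 443 and 135 CPM in sensitive replicates 1 to 3. The groups overlapped and sensitive replicate 2 stood above all others. The log2 fold change of -1.21 ± 0.47 did not pass (adjusted p = 0.0580, edgeR). Without sensitive replicate 2 it was -0.29 (adjusted p = 0.682). It did pass without sensitive replicate 1 (-1.54, adjusted p = 0.0429) and without resistant replicate 1 (-1.07, adjusted p = 0.0370), and the authors' deposited table gives it a log2 fold change of -1.24 with an adjusted p of 0.0424.

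S100a8 was at 0.925, 2.77, 4.71, 1.62, 8.44, 2.78, 12.96, 29.2 and 3.66 CPM in resistant replicates 1 to 9, against 12.2, 22.6 and 9.45 CPM in sensitive replicates 1 to 3. S100a9 was at 0.509, 4.24, 4.31, 0.231, 5.94, 4.67, 11.1, 29.2 and 1.499 CPM in resistant replicates 1 to 9, against 5.48, 14.7 and 6.95 CPM in sensitive replicates 1 to 3. For both subunits resistant replicate 8 was above every sensitive library, while 7 and 6 of the resistant libraries were below all sensitive ones for S100a8 and S100a9 in that order. Neither passed, with log2 fold changes of -0.98 ± 0.80 for S100a8 (adjusted p = 0.353, edgeR) and -0.40 ± 0.99 for S100a9 (adjusted p = 0.775). Without sensitive replicate 2 the values were -0.54 for S100a8 and 0.14 for S100a9, without resistant replicate 8 they were -1.63 (adjusted p = 0.0608) and -1.15, and without resistant replicates 8 and 9 they were -1.59 (adjusted p = 0.0830) and -1.03. S100a9 per kilobase was 0.134 to 1.57 of S100a8 within the resistant libraries and 0.422 to 0.689 within the sensitive libraries.

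In resistant organoids the order per kilobase was Lcn2, Slpi, Saa3, Hp, S100a8, S100a9, Saa2 and Saa1, and only S100a9 and Saa2 were neighbours whose ranges did not overlap. In sensitive organoids it was Lcn2, Saa3, Hp, Slpi, S100a8, S100a9, Saa1 and Saa2, with no overlap between Lcn2 and Saa3, Saa3 and Hp, Slpi and S100a8, or S100a9 and Saa1. Slpi thus stood 2nd in resistant organoids (113 ± 45.3 CPM per kilobase) and 4th in sensitive organoids (261 ± 213).

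**Figure D3:**
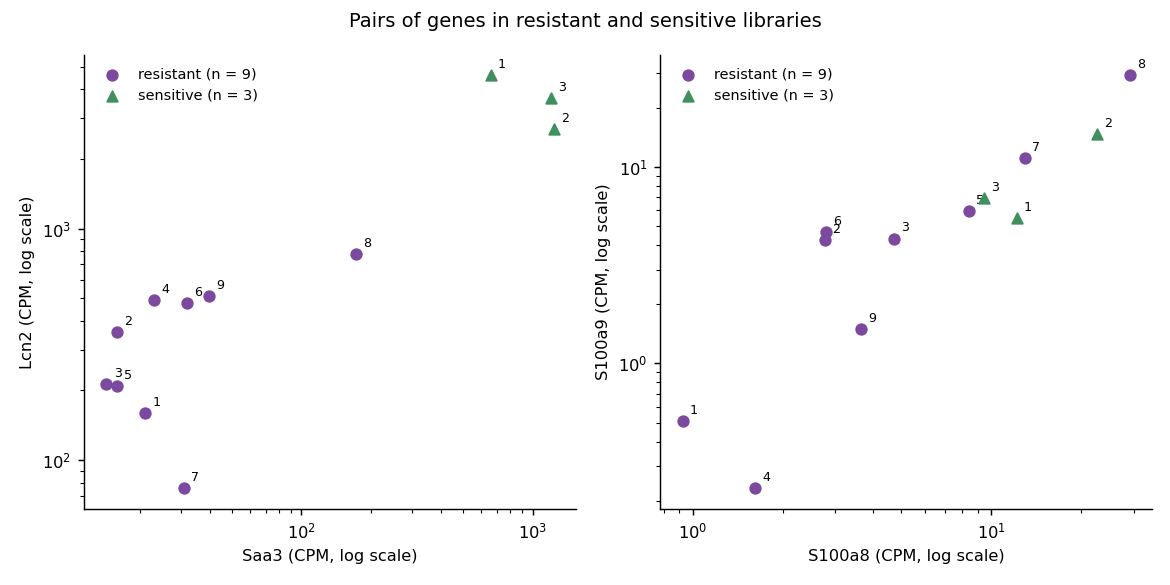
Saa3 against Lcn2 (left) and S100a8 against S100a9 (right), in CPM on log axes, with 1 point per resistant (circles, n = 9) or sensitive (triangles, n = 3) library and its replicate number. The groups separate on the left, where sensitive libraries lie at or above 2678 CPM of Lcn2, and mix on the right.

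Among the 9 resistant libraries the genes did not all follow each other. S100a8 and S100a9 ordered the libraries alike (Spearman's rho 0.90, Pearson's r 0.89 on log2 CPM, and r 0.78 in the 7 left without the libraries farthest from the median). Lcn2 and Hp had a rho of 0.68 (r 0.66, and 0.74 in 7 libraries). Saa3 and Lcn2 had a rho of 0.60 (r 0.51, but -0.09 in 7 libraries, so that it rests on the libraries left out), and Slpi had no rho above 0.35 with any other of the 6 genes. These are descriptions over 9 libraries, out of 15 pairs, with no test; the values of a pair come from the same libraries, whose depths differ. Among 9683 genes whose log2 CPM averaged 3 or more, those ordered most like Saa3 were Rybp (rho 0.97), Fbxw11 (0.95) and Lpcat1 (0.95). Those most like Lcn2 were Usf1 (0.92), Mark2 (0.90) and Kat5 (0.88), and those most like S100a8 were Glrx (0.97), Myo1e (0.97) and Tnfrsf9 (0.95). These genes are the top of 9683 ranked over only 9 libraries. Among so many genes high rho values arise by chance too, and no test was made.

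Cell type markers also moved in this comparison. Of 17 tested macrophage and leukocyte markers 11 were lower and none higher, with a sum of 251 to 595 CPM in resistant and 1445 to 3534 CPM in sensitive libraries, highest in sensitive replicate 2. Ptprc was at 14.04 ± 8.58 CPM in resistant (n = 9) and 61.2 ± 40.3 CPM in sensitive organoids (n = 3), with a log2 fold change of -2.13 ± 0.44 (-1.45 without sensitive replicate 2). Of 10 tested neutrophil markers 5 were lower and 2 higher. Among sensitive libraries, replicate 2 was highest in their sum and in Saa3, S100a8, S100a9 and Slpi, but lowest in Lcn2 and Hp. Their sum was 64.0 to 628 CPM in resistant and 2786 to 5521 CPM in sensitive libraries, where Elane and Ngp had no count. In the sensitive libraries and in resistant replicates 8 and 9 most of that sum was Ltf, which encodes lactoferrin and is also made by glandular epithelia; in resistant replicates 1 to 7 Ltf was at 0.163 to 7.26 CPM. Without it, chosen after seeing its values, the other 15 markers summed to 63.7 to 181 CPM in resistant and 368 to 884 CPM in sensitive libraries. Csf3r, the G-CSF receptor of neutrophils, had a log2 fold change of -2.90 ± 0.66 (-2.32 without sensitive replicate 2).

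Epithelial markers summed to 302 to 3210 CPM in resistant and 6919 to 9184 CPM in sensitive libraries, and 7 of 12 were lower. Epcam averaged 69.7 ± 121 CPM in resistant and 575 ± 32.5 CPM in sensitive organoids and did not pass (adjusted p = 0.0774, edgeR), but did in the DESeq2 Wald test (log2 fold change -3.87), in limma-voom (-5.54), without resistant replicate 9 (-3.92) and without replicates 8 and 9 (-5.90). Alveolar type 2 markers (7 of 12 lower) summed to 230.5 to 525.8 CPM in resistant and 1343 to 2380 CPM in sensitive libraries, and airway secretory markers (4 of 10 tested lower) to 43.2 to 978 CPM and 1001 to 1622 CPM in resistant and sensitive libraries. Fibroblast markers were higher (8 of 9 tested), at 70.9 to 1105 CPM in resistant and 13.97 to 38.2 CPM in sensitive libraries, where Dpt and Postn had no count. Resistant replicates 8 and 9, the highest in Saa3 and Lcn2, were also the highest in epithelial markers, while replicate 6 was the highest in Hp. Without both, the log2 fold changes of Saa3 (-5.56), Lcn2 (-3.69) and Hp (-4.84) were each farther from 0 than with all libraries. The part of these cell types in the values of the 8 genes was not tested.

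Of 22 acute phase inducers and receptors, 11 were lower and 2 higher in resistant organoids, with a median of -0.98. Il6 was at 7.75 ± 5.75 CPM in resistant and 40.9 ± 18.9 CPM in sensitive organoids (SD, n = 9 and 3), a log2 fold change of -2.39 ± 0.58 (adjusted p = 0.00641, edgeR). Il1a fell by 3.18 ± 0.71 on the log2 scale and Il1b by 3.39 ± 0.78 (-2.58 without sensitive replicate 2). Receptors went both ways. Tnfrsf1b fell by 1.92 ± 0.18, Osmr by 1.55 ± 0.37 and Il22ra1 by 4.38 ± 0.69 (-5.02 without resistant replicates 8 and 9). The 2 genes higher were the receptor genes Il1rap (1.44 ± 0.37, adjusted p = 0.00901, edgeR) and Lifr (1.02 ± 0.38, adjusted p = 0.0471, edgeR). Il6ra, Il6st and Il17ra did not pass.

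Of 25 transcription factors and feedback genes, 8 were lower and 1 higher. Cebpa, a C/EBP factor, was at 30.4 ± 11.9 CPM in resistant and 127 ± 23.2 CPM in sensitive organoids, a log2 fold change of -2.06 ± 0.27 (adjusted p = 0.000121, edgeR). The kinase gene Jak2 fell by 1.42 ± 0.18 and Zc3h12a, whose product degrades cytokine mRNAs, by 1.82 ± 0.22. Stat3 was at 215 ± 40.4 CPM in resistant and 206 ± 35.9 CPM in sensitive organoids, and Cebpb at 159 ± 51.4 and 206 ± 31.2 CPM in resistant and sensitive organoids; neither passed (adjusted p = 0.815 and 0.301, edgeR). Socs3, Cebpd and Nfkbiz, an NF-kB cofactor of Lcn2 in the mouse, did not pass either, with log2 fold changes of 0.06 ± 0.52, 0.05 ± 0.42 and 0.06 ± 0.32, whose signs turned in some alternatives.

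Of 19 other acute phase genes tested, 6 were lower and 2 higher, with a median of -1.84. The complement gene C3 averaged 128 ± 67.6 CPM in resistant and 877 ± 343 CPM in sensitive organoids, a log2 fold change of -2.78 ± 0.37 (adjusted p = 0.000152, edgeR). Cfb, complement factor B, fell by 4.40 ± 0.58 on the log2 scale (-5.26 without resistant replicates 8 and 9). Hpx, the haem scavenger hemopexin, had a log2 fold change of -3.45 ± 0.64, unlike its rise in NSCLC against normal organoids. The 2 genes higher were Mt1 (1.07 ± 0.32) and Serpina3n (2.12 ± 0.75). Serpina3n was low in both groups, at 0.647 ± 0.478 CPM in resistant and 0.142 ± 0.037 CPM in sensitive organoids. Of 23 other antimicrobial and mucosal defence genes, 12 were lower and none higher, with a median of -4.17. Lyz1, a lysozyme gene with a close paralog Lyz2, averaged 0.318 ± 0.342 CPM in resistant and 99.6 ± 54.9 CPM in sensitive organoids. Lpo, lactoperoxidase, fell by 8.75 ± 0.73 on the log2 scale (-9.64 without resistant replicate 8). Ltf ranged from 0.163 to 488 CPM in resistant and from 2315 to 4636 CPM in sensitive libraries; its log2 fold change of -5.13 ± 1.85 passed (adjusted p = 0.0437, edgeR) but did not without any one of the 3 sensitive libraries or of resistant replicates 1 to 7 (-5.34 to -4.76 in those fits), and was -6.28 without resistant replicate 8 and -10.79 without resistant replicates 8 and 9.

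Of 13 other S100 genes, 5 were higher and none lower, with a median of 0.68. S100a4 averaged 207 ± 198 CPM in resistant and 5.22 ± 4.26 CPM in sensitive organoids, a log2 fold change of 5.31 ± 1.03 (6.19 without sensitive replicate 2), and S100a6 rose by 2.61 ± 0.41. Of 18 partners and receptors, 7 were lower and 3 higher. Cd36, a scavenger receptor that binds serum amyloid A, fell by 4.61 ± 0.43 on the log2 scale, and Fpr1, a formyl peptide receptor, had a log2 fold change of -3.65 ± 0.46 (-2.77 without sensitive replicate 2). Scarb1, the HDL receptor, which also binds serum amyloid A, rose to 148 ± 36.0 CPM in resistant organoids, against 45.5 ± 6.09 CPM in sensitive organoids. Slc22a17 did not pass (log2 fold change 1.43 ± 0.69, adjusted p = 0.119, edgeR).

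**Figure D4:**
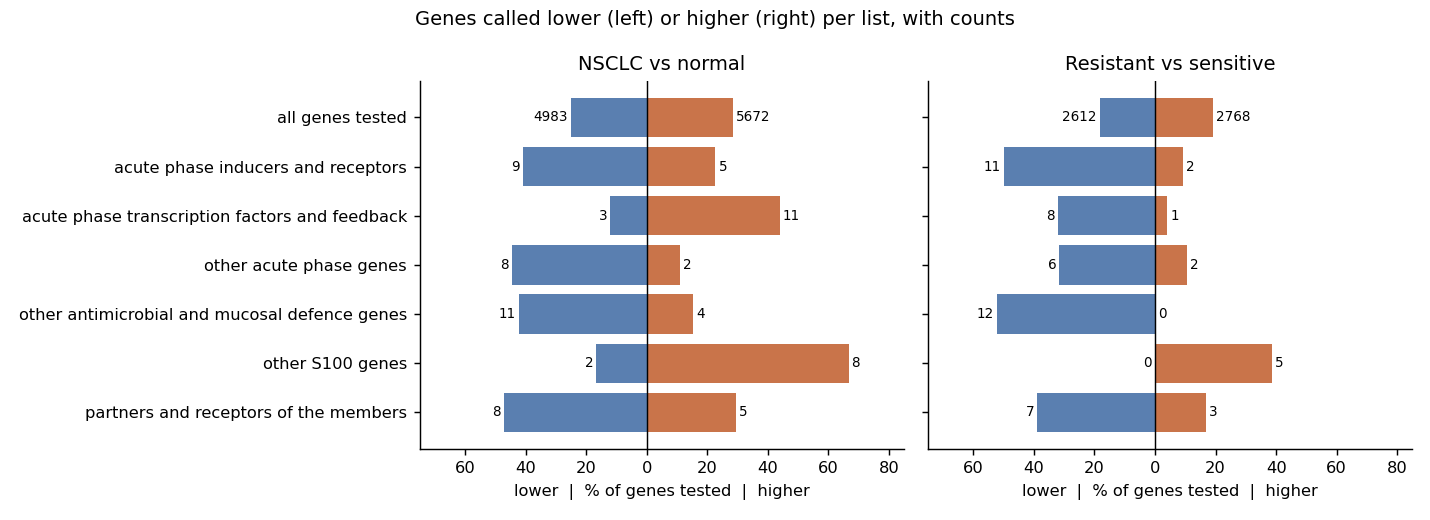
Share of the genes tested that were lower (blue, left) or higher (orange, right) at an adjusted p under 0.05, per gene list and for all genes, in NSCLC against normal (left panel) and resistant against sensitive organoids (right panel), with the number of genes at each bar. The other S100 genes lean to the right in both panels (8 and 5 genes higher), and the antimicrobial list to the left (11 and 12 genes lower).

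**Figure D5:**
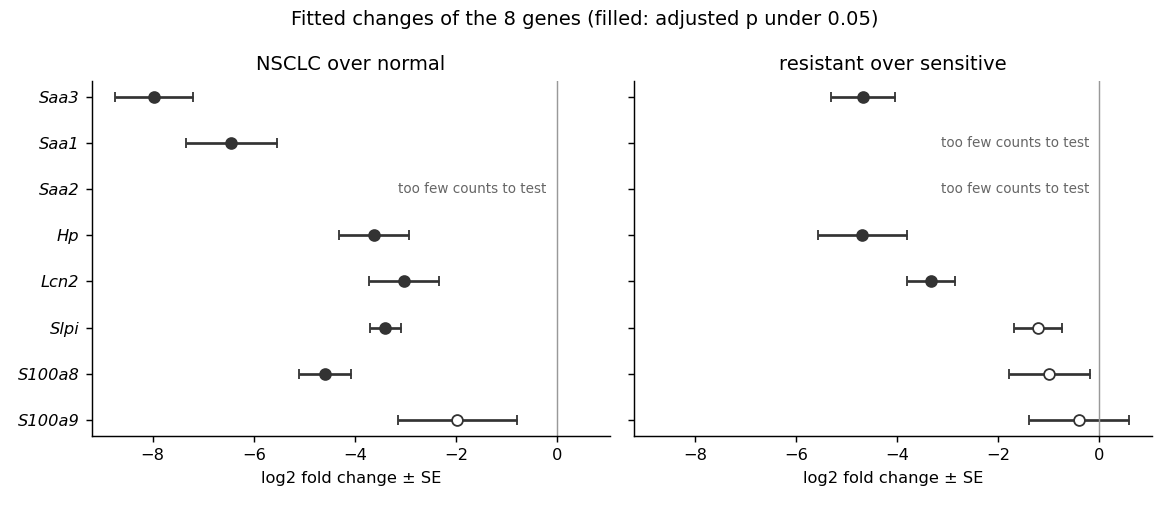
Log2 fold change ± SE of each of the 8 genes, NSCLC over normal (left) and resistant over sensitive (right); filled points passed an adjusted p under 0.05, and genes with too few counts have no point. Saa3, Hp and Lcn2 are filled in both panels, and Saa1, which has no point on the right, Slpi and S100a8 are filled only in the left one.

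Both comparisons rest on different libraries, and each was fitted on its own table. Set side by side, the log2 fold changes in NSCLC against normal and in resistant against sensitive organoids were -7.97 and -4.67 for Saa3, -3.62 and -4.68 for Hp, and -3.02 and -3.33 for Lcn2. For Slpi they were -3.40 and -1.21, and for S100a8 -4.59 and -0.98, of which the second value of each did not pass. Whether the changes differed between the comparisons was not tested.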

How the data were processed

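Per the labels' protocols, sequencing was of stranded mRNA libraries, with paired reads of 150 bases. The submitters' processing notes name STAR 2.6.0a, DESeq2 1.26.0 and the build mm10; of the read counter, its strand setting and the annotation, none is given in the sources used here. The deposited tables hold whole-number counts per gene and library, not normalized by the authors, besides the authors' deposited log2 fold changes and adjusted p-values. The deposited scaled columns, on a log2 scale for the resistant organoids, were not used.

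Each table was analysed on its own. For NSCLC and normal libraries, 26857 of 27077 rows with no symbol got one by their Ensembl identifier, and symbols stored as dates were restored (26 of 26, and 26 of 27 for the resistant organoids). Genes were filtered with filterByExpr, scaled by TMM and compared with edgeR 4.0.16 (R 4.3.3; glmQLFit, glmQLFTest), with p-values adjusted over all genes tested and a threshold of 0.05. The SE was the log2 fold change divided by the root of F. The fits were also run on simulated data with the same spread between libraries for every gene, so that run does not cover genes that vary more. Alternatives used DESeq2 1.42.0, limma 3.58.1, other filters and scalings, thinning to the shallowest library, and left-out libraries. Transcript lengths and positions came from GENCODE on the same build. Intervals and limits at 3 counts cover counting error only.

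The 8 genes and the 13 lists were chosen with earlier results of these data known. Named besides the 8 were genes of a fixed set, up to 3 called genes per list and direction by adjusted p, and the 3 genes ordered most like a given gene; not all of these are printed.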

Additional observations from a re-analysis of the deposited data

Results flagged for a closer look

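In 69 groups of 4 (NSCLC) or 9 (resistant) libraries, each for 1 gene, the highest or lowest library was set against the others by Dixon's criterion on CPM. The normal and sensitive groups, with 3 libraries each, were too small for it. By it, 12 values, from 7 libraries, stood apart. Chance alone passes it in about 1 of 20 groups if values spread normally, which was not checked for CPM. All 12 were the highest library of their group, so chance may pass more groups here, and the flags are descriptions only. Of the 8 genes, resistant replicate 8 stood apart in Saa3 (171 CPM, next 39.97), S100a8 (29.2 CPM, next 12.96) and S100a9 (29.2 CPM, next 11.1). Resistant replicate 6 stood apart in Hp (116 CPM, next 52.4), and NSCLC replicate 1 in S100a8 (0.691 CPM, next 0.273). Among the other genes named, NSCLC replicate 4 stood apart in Il1b (0.328 CPM) and Mmp9 (0.209 CPM) and NSCLC replicate 3 in Socs3 (280 CPM). Resistant replicate 9 stood apart in Il22ra1 (4.05 CPM) and Cebpa (59.3 CPM), resistant replicate 6 in S100a4 (674 CPM) and resistant replicate 2 in Ptprc (35.3 CPM).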

How the results depend on the processing

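Of the 8 genes, 5 to 7 were lower in NSCLC over 16 alternatives and 3 to 4 in resistant organoids over 22, and none was higher in any. The 5 genes called with libraries thinned to the shallowest or under the stricter filter were all those tested there. Saa3, Lcn2 and Hp kept their calls in all alternatives run in both comparisons. Slpi in resistant organoids passed in the DESeq2 Wald test (-1.24, adjusted p = 0.0432, over alternatives 0.0370 to 0.682), and over fits that leave out 1 library its log2 fold change was -1.54 to -0.29 and that of S100a9 -1.15 to 0.14. Genes higher in resistant organoids numbered 1765 to 2867 over those fits, lowest without sensitive replicate 3, and 1800 without sensitive replicate 1. Upper quartile scaling shifted the median of all genes in the NSCLC comparison by -0.18. Depth limits Saa1 and Saa2 in both comparisons and S100a9 in the NSCLC comparison, which had too few counts to show a modest difference.

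Same-numbered libraries did not deviate together in NSCLC and normal libraries (correlations -0.01, 0.02 and -0.02). In the 3 same-numbered pairs of resistant and sensitive libraries the correlations were 0.14, 0.15 and -0.09. Not every library correlated best with its own number. With so few libraries this check cannot exclude a pairing, and the main fits used none. An alternative fit took the replicate number as a block. NSCLC replicate 4 and resistant replicates 4 to 9 have no library of the same number in the other group. Its fold changes therefore rest on replicates 1 to 3 of each group. With this block, S100a8 passed in resistant organoids (-2.57, adjusted p = 0.0280, edgeR). Resistant replicate 8, the highest in S100a8, had no part in that value. Genes higher numbered 4728 in NSCLC and 1983 in resistant organoids. The values of Cebpd (-0.30), Socs3 (-0.10) and Stat3 (-0.013) turned sign in resistant organoids.

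Values near 0 in resistant organoids turned in other settings as well. Limma-voom gave -0.15 for Cebpd, -0.050 for Nfkbiz and -0.15 for Socs3. Over fits that leave out 1 library, log2 fold changes were -0.059 to 0.19 for Cebpd, -0.043 to 0.16 for Nfkbiz, -0.17 to 0.44 for Socs3 and -0.055 to 0.20 for Stat3. The causes were not tested.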
